A study of Triticum aestivum with 15 samples.

Results

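The comparison described here sets the upper leaves of bread wheat (Triticum aestivum), taken when plants had lacked iron for 11 days, against a first leaf taken at day 0, just before iron was withdrawn. It uses 6 of the 15 libraries of the series, chosen by their labels alone: 3 libraries of day 11 that hold the third, the fourth and the fifth leaf, and 3 libraries of day 0 that hold the first leaf. All plants were wild type of the cultivar Fielder, grown in hydroponic boxes for 12 days with 50 µM iron supplied as a sodium iron EDTA chelate, and then with 0 µM iron. The same 3 plant numbers occur in both groups, and the libraries are called plant 1, 2 and 3 here. Messenger RNA was sequenced from bulk tissue and counted per gene. The other 9 libraries come from the day 1 leaf (the first), the day 7 leaf (the third) and day 11 roots. They serve to class genes and to set the same genes beside the comparison, and the 6 of them that are leaves also enter the fit that gives the spread and the filter.

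Iron sits in the haem and iron-sulphur proteins of the photosynthetic and respiratory electron chains, and chlorophyll synthesis needs it too, so leaves that develop without iron turn pale between the veins. Grasses take iron up by secreting mugineic acids, small chelators made from nicotianamine, and by importing the iron chelate through transporters at the root surface. Iron already built into an old leaf is moved only slowly, which is why the youngest leaves show the shortage first. The day 11 leaves are upper leaves of older plants and the day 0 leaf is the lowest leaf of younger plants. Iron supply, leaf position, the number of leaf positions per library and plant age therefore differ together in every value below. They cannot be told apart, and no library of day 11 plants kept on iron entered the comparison.

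The deposited table holds 269207 gene identifiers without names or descriptions, and 0 of them matched the RefSeq gene table used here. No gene can therefore be assigned to iron uptake, photosynthesis or any other process, and no leaf marker could be looked up by name. The identifiers do give the chromosome, the subgenome (A, B or D, the 3 genomes that hexaploid wheat carries) and the annotation class. Libraries held 19865687 to 21386369 counts on day 11 and 15434838 to 19845743 on day 0. The libraries of a group differed little on day 11 and much on day 0. With 1 library per plant in a group, differences between plants and between libraries cannot be told apart. The biological coefficient of variation, the spread between replicates beyond counting error as a share of the level, was 0.186 within the day 11 group and 0.496 within the day 0 group. It was still 0.447 on day 0 without plant 1, whose counts were spread over the most genes of that group. Fewer cells of a type and less RNA per cell cannot be told apart in such bulk samples.

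In the day 11 leaves the transcript pool was spread over many more genes than in the day 0 leaf. The number of genes that together made up 50% of the counts was 3209, 2963 and 2816 in plants 1, 2 and 3 on day 11, against 1476, 1130 and 1138 on day 0. All 3 day 11 libraries lay above all 3 day 0 libraries, and the means were 2996 ± 199 and 1248 ± 198 genes (SD, n = 3 each). The 100 most abundant genes of a library took 12.3%, 13.1% and 14.2% of its counts on day 11, against 18.7%, 20.8% and 20.2% on day 0. The 10 most abundant took 3.28% ± 0.29 on day 11 and 4.90% ± 0.35 on day 0 (SD, n = 3 each). Of 5 such measures, each separated the groups without overlap. The exact two-sided permutation test gave p = 0.1 for each (adjusted p = 0.1 over the 5), which is the smallest value that 3 libraries against 3 allow. The first leaf on day 1 resembled day 0 in this respect, with 857, 806 and 1079 genes making up 50% of the counts. The third leaf on day 7 had 2619, 2379 and 1645.

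Of 62841 genes tested, 13560 rose in the day 11 leaves and 14295 fell (quasi-likelihood test of edgeR, called at an adjusted p under 0.05 after Benjamini and Hochberg), which is 21.6% and 22.7% of the genes and 44.3% together. Levels are given as CPM, the count scaled to the size of its library after correction by the trimmed mean of M-values (TMM), which takes the bulk of genes as the standard. The called changes varied in size, with 2-fold or more reached by 66.9% of the rising and 71.75% of the falling genes. The genes that rose had a median log2 fold change of 1.35, with quartiles of 0.86 and 2.77 and a median SE of 0.28. Those that fell had a median of -1.51, with quartiles of -2.58 and -0.94 and a median SE of 0.25. Differences of 4-fold or more were reached by 34.2% of the rising genes and 36.2% of the falling genes, which is 7.39% and 8.23% of all genes tested, and differences of 8-fold or more by 23.2% and 19.5%. Of the 13560 rising genes, 13503 were higher on day 11 in each plant, and of the 14295 falling genes 13982 were lower in each. The calls used these same libraries, so this agreement is largely built into them. Its share over all genes tested was not computed. The 3 day 11 libraries lay wholly above the 3 day 0 libraries for 13467 of the rising genes, and wholly below them for 13788 of the falling genes. Over all genes tested, such separation was found upwards for 32.5% and downwards for 26.9%.

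The balance of rises and falls depended on the scaling. TMM factors were 1.24 to 1.28 on day 11 and 0.851 to 0.952 on day 0. With counts scaled to library totals alone, the median log2 fold change of all genes was 0.60 instead of 0.12, a shift of 0.48, and 23447 genes rose while 9042 fell, so rises made up 72.2% of the calls against 48.7% with TMM. Size factors of the RLE type left the split nearly even, with 13976 rises and 13968 falls. With the plant as a block 13076 genes rose and 13427 fell over the 12 leaf libraries, and 8911 and 10464 over the 6 libraries alone. Leaving plant 2 out of all leaf groups left 7254 rises and 9240 falls. A test for changes above 2-fold called 4204 rises and 6207 falls.

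Counts moved from a large block of genes to another. The genes that fell took 28.1%, 29.7% and 29.4% of all counts in plants 1, 2 and 3 on day 11, against 62.8%, 65.7% and 66.9% on day 0. The genes that rose took 35.6%, 34.1% and 34.7% on day 11, against 9.76%, 9.05% and 7.92% on day 0. The direction of these shares was fixed by the choice of genes, so they describe size only. In libraries outside the groups compared, the falling genes took 64.9% to 66.2% of the counts of the first leaf on day 1. They took 38.2% to 51.7% in the third leaf on day 7 and 18.6% to 19.1% in roots. The leaf libraries of days 1 and 7 entered the filter and the spread behind the calls, and the roots did not. The rising genes took 8.69% to 9.52% on day 1, 16.7% to 23.1% on day 7 and 38.0% to 38.6% in roots. The first leaf after 1 day thus stood with day 0, and the day 7 leaf between day 0 and day 11, with plant 3 of day 7 nearest to the first leaves.

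**Figure D1:**
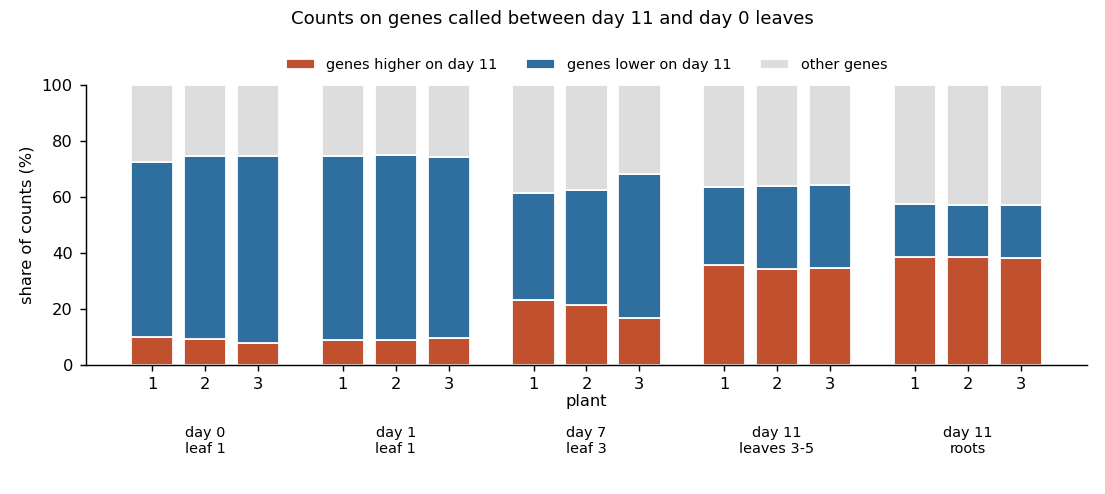
Share of all counts (%) in each of the 15 libraries that fell on genes called higher (red) or lower (blue) in day 11 leaves than in day 0 leaves, and on all other genes (grey). The lower genes hold 28.1% to 29.7% of the counts in day 11 leaves and 62.8% to 66.9% in day 0 leaves.

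Since the identifiers carry no function, only 4 genes are named: the pair with the largest gain and the pair with the largest loss in mean CPM among called genes that moved the same way in every plant. TraesCS6D02G378000 on chromosome 6D stood at 1615, 1677 and 2353 CPM in plants 1, 2 and 3 on day 11, against 158, 178 and 215 CPM on day 0. Every day 11 library was above every day 0 library, by 10.2-fold in the means (edgeR log2 fold change 3.36, SE 0.24, adjusted p = 2.1e-06). It stood at 245 to 373 CPM on day 1 (edgeR log2 fold change against day 0 of 0.77, adjusted p = 0.11) and at 587 to 738 CPM on day 7 (1.81, edgeR adjusted p = 0.00045). In roots it stood at 1.07 ± 0.46 CPM (SD, n = 3, scaled over all 15 libraries).

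TraesCS6B02G432300 on chromosome 6B stood at 1461, 1432 and 2244 CPM on day 11, against 226, 255 and 203 CPM on day 0. The groups did not overlap, and the means differed by 7.51-fold (edgeR log2 fold change 2.91, SE 0.23, adjusted p = 4.7e-06). It rose already by day 1, when it stood at 428 to 569 CPM (edgeR log2 fold change against day 0 of 1.10, adjusted p = 0.042). Its day 7 levels of 491 to 664 CPM did not pass the test against day 1 (edgeR log2 fold change 0.19, adjusted p = 0.54). Whether the day 1 steps of the 2 genes differ was not tested. Roots held 0.588 ± 0.29 CPM (SD, n = 3, scaled over all 15 libraries).

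TraesCS4B02G140300 on chromosome 4B stood at 2262, 2838 and 2383 CPM on day 11, against 8493, 11058 and 9721 CPM on day 0. All day 11 libraries were below all day 0 libraries, and the mean on day 0 was 3.91 times that on day 11 (edgeR log2 fold change -1.97, SE 0.23, adjusted p = 6.8e-05). This single gene took 0.312% of all counts on day 11 and 0.874% on day 0. On day 1 it stood at 10326 to 12708 CPM and did not pass the test against day 0 (edgeR log2 fold change 0.25, adjusted p = 0.59). On day 7 it stood at 4397 to 7155 CPM (edgeR log2 fold change against day 0 of -0.82, adjusted p = 0.022).

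TraesCS4D02G135000 on chromosome 4D stood at 2702, 3559 and 3046 CPM on day 11, against 7920, 10717 and 9021 CPM on day 0, again without overlap (edgeR log2 fold change -1.57, SE 0.26, adjusted p = 6.2e-04). The day 0 mean was 2.97 times the day 11 mean. On day 1 it stood at 9876 to 12291 CPM and did not pass the test against day 0 (edgeR log2 fold change 0.29, adjusted p = 0.58). Nor did its day 7 levels of 4198 to 7668 CPM (edgeR log2 fold change -0.73, adjusted p = 0.053). Both falling genes were at or under 0.18 CPM in every root library (scaled over all 15 libraries). Many wheat genes have a near-identical copy in each subgenome, and the sources used here do not say how reads shared between copies were counted, so the level of a single copy is uncertain.

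**Figure D2:**
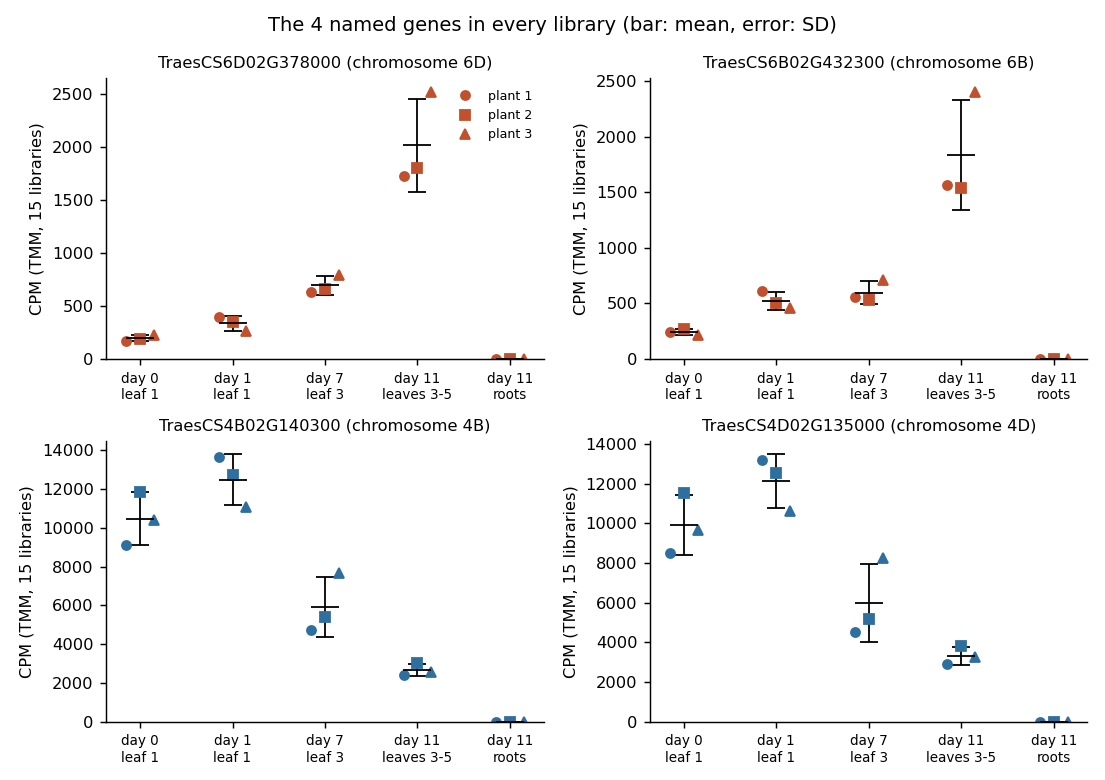
Level of the 4 named genes in every library (CPM, TMM-scaled over all 15 libraries), with 1 symbol per plant, the mean as a bar and the SD as error (n = 3). The upper pair is highest in the day 11 leaves and the lower pair in the first leaves of days 0 and 1, and all 4 are near 0 in roots.

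Genes at high levels in the first leaf on day 1 were those called lower most often. To keep the grouping apart from the libraries compared, genes were classed by their mean level in the first leaf on day 1. The day 1 leaf is, like that of day 0, a first leaf, so the classes share its leaf position. Genes high in it could be so on day 0, so the classing favoured falls at high levels. A change of a given size is also called more readily at high counts, so shares of calls depend on level. A CPM class also reflects transcript length, since longer transcripts yield more counts. Above 100 CPM, 1180 of 1538 genes fell (76.7%) and 71 rose (4.62%), beside 22.7% and 21.6% of all genes tested. The median log2 fold change in this class was -1.36, and -1.35, -1.28 and -1.44 as log2 differences in plants 1, 2 and 3. From 10 to 100 CPM, 43.6% of 14289 genes fell and 20.3% rose. From 1 to 10 CPM the shares were close to those of all genes, with 20.0% lower and 22.6% higher of 30423.

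At the other end stood genes with no counts in the day 1 leaf. Of 2620 such genes, 1008 rose (38.5%) and 23 fell (0.878%). These had to be seen in some other leaf group to enter the test, so rises among them were favoured and the share is given without further reading. By library totals 60.8% of the class above 100 CPM fell and 8.84% rose, and its median log2 fold change was -0.87, beside 0.60 over all genes. Genes of this class took 29.3%, 31.5% and 32.2% of all counts on day 11, against 49.2%, 53.1% and 52.3% on day 0.

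**Figure D3:**
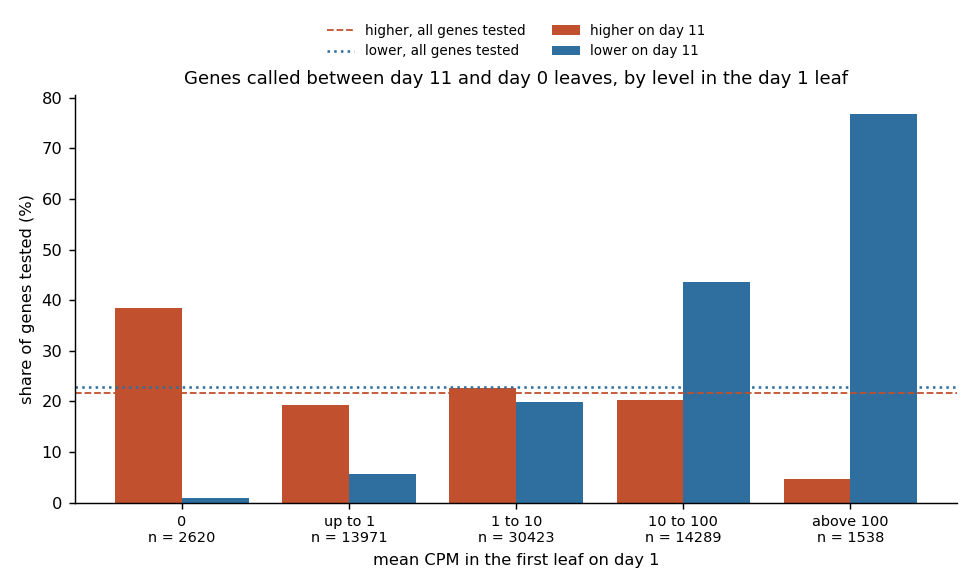
Share of tested genes (%) called higher (red) or lower (blue) in day 11 leaves than in day 0 leaves, by mean level in the first leaf on day 1 (CPM), with the shares over all genes tested as dashed and dotted lines. The share of lower genes is 20.0% at 1 to 10 CPM, 43.6% at 10 to 100 CPM and 76.7% above 100 CPM, and genes at 0 had to be seen in another leaf group to be tested.

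Root-preferred genes rose more often than they fell in the day 11 leaves, and leaf-preferred genes fell more often than they rose. Root-preferred genes had at least 1 CPM in roots, at least 4 times their mean level in the day 1 and day 7 leaves. Leaf-preferred genes were the reverse. All root libraries are of day 11 without iron, so organ, day and iron supply differ together in this definition. A gene higher on day 11 in every organ could thus be classed as root-preferred. Neither group compared entered the definition. The day 1 leaf is a first leaf too, however, so genes low or high in it could be so on day 0. The definition thus favoured rises of root-preferred and falls of leaf-preferred genes. Of 9901 root-preferred identifiers 3793 passed the filter on low counts in leaves, and of 12298 leaf-preferred ones 12252 did. A root-preferred gene that is low in leaves could pass through the group where it was high, so its share of calls over the tested genes is a description only. Of the 3793 root-preferred genes tested, 1420 rose (37.4%) and 339 fell (8.94%), with a median log2 fold change of 1.22 beside 0.12 over all genes. Of the 12252 leaf-preferred genes, 6284 fell (51.3%) and 1387 rose (11.3%), with a median of -0.84. The remaining 46796 genes rose in 23.0% and fell in 16.4% of cases. The plants each showed this, with medians for root-preferred genes of 0.94, 0.83 and 0.80 in plants 1, 2 and 3 and for leaf-preferred genes of -0.80, -0.66 and -0.75 (log2 differences between the libraries of a plant). By library totals 1819 root-preferred genes rose and 221 fell (median log2 fold change 1.69), and 2144 leaf-preferred genes rose and 4913 fell (median -0.36), beside a median of 0.60 over all genes. Without plant 2 in any leaf group, 845 root-preferred genes rose and 151 fell, and 677 leaf-preferred genes rose. Without plant 3, 223 root-preferred genes fell. At a mean level of at least 1 CPM over the 12 leaf libraries, where 2048 of 2053 root-preferred genes were tested, 48.4% rose and 11.0% fell, beside 23.3% and 26.4% of all 50029 genes tested at that level. This split was added after the data had been seen. The mean level includes the day 11 and day 0 libraries. A gene low on days 1 and 7 could therefore reach 1 CPM through its rise on day 11, so these shares too are a description only.

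Root-preferred genes took 5.10%, 5.08% and 4.03% of all counts in the day 11 leaves of plants 1, 2 and 3, against 1.03%, 1.08% and 1.09% on day 0. The share was 0.928% to 1.108% on day 1, 1.29% to 1.64% on day 7 and 25.9% to 27.3% in roots. The rise was not carried by a handful of genes, since the 10 most abundant root-preferred genes of a library held 13.2% to 19.8% of these counts on day 11 and 13.5% to 14.1% on day 0. Among 612 root-preferred genes with at least 50 CPM in roots, the median level in day 11 leaves was 13.2% of the root level, with quartiles of 5.37% and 28.3%. On day 0 the median was 4.46%, with quartiles of 0.731% and 12.4%. The genes kept at or under 1% of their root level numbered 42 of the 612 on day 11 and 163 on day 0. Whether root material in the leaf samples has a part in these levels was not tested.

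The shares were less far from those of all genes when preference was set against the day 7 leaf alone, a definition added after the data had been seen. Then 30.9% of 3908 root-preferred genes rose and 15.3% fell, and 43.8% of 11895 leaf-preferred genes fell and 14.7% rose. Both groups still departed from the 21.6% and 22.7% of all genes, in the same directions. Level and preference also overlap, so they were read together. Among genes of 10 to 100 CPM on day 1, 70.5% of 3986 leaf-preferred genes fell, beside 33.5% of 9972 genes with no preference and 22.7% of 331 root-preferred genes. In the class of 1 to 10 CPM rises and falls of root-preferred genes were about equal, with 25.9% of 1613 higher and 24.7% lower and a median log2 fold change of 0.01. Of 24809 genes with no preference in that class, 23.1% were higher and 17.1% lower. Of the root-preferred genes 13.0% were higher and 14.7% lower by 4-fold or more, beside 2.80% and 5.40% of those with no preference. From 10 to 100 CPM, 37.5% of the 331 root-preferred genes rose. Above 100 CPM, 28.0% of 25 root-preferred genes rose and 44.0% fell.

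**Figure D4:**
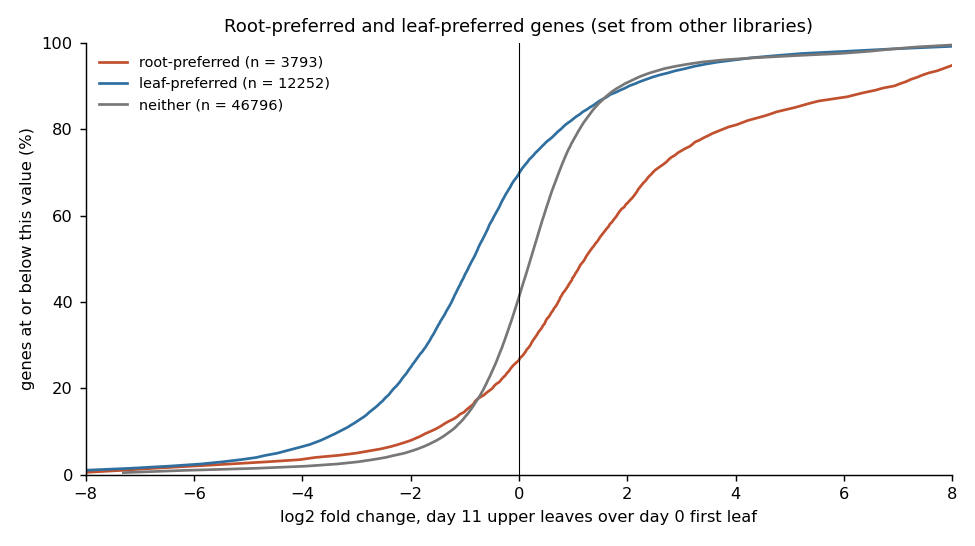
Cumulative share of genes (%) against the log2 fold change of day 11 upper leaves over day 0 first leaf, for root-preferred (red), leaf-preferred (blue) and other genes (grey), with groups set from the root, day 1 and day 7 libraries and the outermost fold changes beyond the axis. The medians are 1.22 for root-preferred, -0.84 for leaf-preferred and 0.22 for other genes.

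Much of the change was already visible in leaves that entered neither group. The third leaf on day 7 and the first leaf on day 1 share no library with the comparison, though they come from the same 3 plants and were fitted with 1 estimate of the spread. Of the 13560 genes that rose on day 11, 6018 were also higher on day 7 than on day 1 (44.4%) and 355 were lower (2.62%), beside 19.7% and 15.9% of all genes tested. Of the 14295 that fell, 7019 were lower on day 7 than on day 1 (49.1%) and 371 were higher (2.60%). Among falls of 4-fold or more, 2926 of 5173 were lower on day 7 than on day 1 (56.6%). Since leaf position changes from the first to the third between these days, this contrast carries the same mixture of leaf position, age and iron.

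Set against day 0, the same genes moved in steps of unequal size. The rising genes had a median log2 fold change of 0.03 on day 1, 0.76 on day 7 and 1.35 on day 11, and the falling genes -0.09, -0.82 and -1.51. Over all genes tested the medians were -0.01, 0.09 and 0.12. These 3 contrasts share the day 0 libraries, which also chose the genes, so the values are given side by side only. Over all genes tested, 14.3% rose and 13.9% fell on day 7, and 0.759% rose and 0.535% fell on day 1, each against day 0.

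Some called genes were seen in day 11 leaves but not in day 0 leaves, or the reverse. Of the rising genes, 1381 had 0 counts in all day 0 libraries, and of the falling genes 618 had 0 counts in all day 11 libraries. The depth behind a 0 differed, since 3 counts over a group correspond to 0.0388 CPM on day 11 and 0.0608 CPM on day 0. After the leaf libraries had been thinned at random to the smallest total, 1209 rose from 0 and 506 fell to 0. The TMM factors still differed after thinning, so the CPM behind a 0 was not made equal. The counts depended on the libraries: without plant 2 they were 586 and 365, and without plant 1 they were 722 and 436. With the plant as a block over the 6 libraries alone they were 585 and 252. Levels were low on both sides: the median was 1.114 CPM on day 11 for the genes that rose from 0, and 1.23 CPM on day 0 for those that fell to 0. High levels were reached mainly by the genes that rose, since 95 of the 1381 had 10 CPM or more and 24 had 100 CPM or more. Of the 618 genes that fell to 0, 11 had started at 10 CPM or more and 0 at 100 CPM or more.

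Most of these genes were seen in other leaves. Of the 1381, 1153 had counts on day 7 (83.5%) and 681 on day 1 (49.3%), and 176 had none in either, so that among leaves they were seen on day 11 alone. Of the 618, 598 had counts on day 1 (96.8%) and 521 on day 7 (84.3%). Roots held at least 1 CPM of 516 of the genes that rose from 0 (37.4%) and of 135 of those that fell to 0 (21.8%), beside 68.7% of all genes tested. Low-confidence gene models, which rest on weaker evidence of a functional gene, made up 23.5% and 19.4% of these genes, beside 18.1% of all tested.

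High-confidence models were called more often than low-confidence ones, with 22.7% of 51457 higher and 24.0% lower against 16.4% and 17.1% of 11384. Rises of 4-fold or more made up 7.375% of the high-confidence and 7.458% of the low-confidence models, and falls of that size 8.588% and 6.623%. The low-confidence models also had fewer counts, with a median of 1.26 CPM on day 11 beside 4.42 CPM (not per length). Among genes of 1 to 10 CPM on day 1, 15.6% of 5314 low-confidence models rose and 23.0% fell, beside 24.1% and 19.3% of 25109 high-confidence models. Within this class the low-confidence models still had lower levels, with a median of 2.17 CPM on day 11 beside 3.75 CPM (not per length), and the difference between the classes was not tested. Without plant 2, 839 low-confidence models rose and 1117 fell, beside 1864 and 1948 with all plants.

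The changes were spread over the whole genome. Over the 21 chromosomes the share of rising genes ran from 18.9% on 6B to 23.8% on 3D, and that of falling genes from 21.6% on 2D to 24.2% on 4B, all near the 21.6% and 22.7% of all genes. Median log2 fold changes ran from 0.07 to 0.17. Subgenomes A, B and D had medians of 0.11, 0.11 and 0.14. With TMM scaling, rising genes outnumbered falling ones on 2D, 3D, 5D and 6D and on none of the A or B chromosomes, with 757 against 707 on 2D. Margins were small, with 743 against 758 on 2A, 737 against 751 on 2B, and 22.46% against 22.35% over subgenome D. Which side is larger also depends on the scaling. Rises outnumbered falls over the whole genome by library totals, RLE size factors (13976 against 13968) and DESeq2 (15354 against 14728).

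Within chromosomes, large rises were more frequent towards the ends. Wheat identifiers of this kind number the genes along each chromosome, and the ends of wheat chromosomes are known for high recombination and for many duplicated genes. When the high-confidence genes of each chromosome were divided into 10 bins of this order, the share that rose at all differed little, from 21.4% to 24.0%. The share that rose 4-fold or more was 9.33% in bin 1 and 9.48% in bin 10, and was smaller in the middle, with 5.38% in bin 5, beside 7.39% of all genes tested. On 19 of the 21 chromosomes the outer bins 1 and 10 together had a larger share of such rises than the middle bins 5 and 6. Falls of 4-fold or more ran from 6.68% in bin 4 to 9.90% in bin 7, with 8.48% in bin 1, 8.48% in bin 5 and 9.83% in bin 10, beside 8.23% of all genes. On 11 of the 21 chromosomes the outer bins had a larger share of them than the middle ones. Genes at the ends also had lower levels, with a median of 3.55 CPM on day 0 against 5.15 CPM in the middle (not per length). At like levels the gap was smaller: among genes of 1 to 10 CPM on day 1, 4.60% rose 4-fold or more at the ends against 3.65% in the middle, and from 10 to 100 CPM 2.07% against 1.53%. The 4-fold limit and the outer and middle bins were chosen after the values had been seen.

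**Figure D5:**
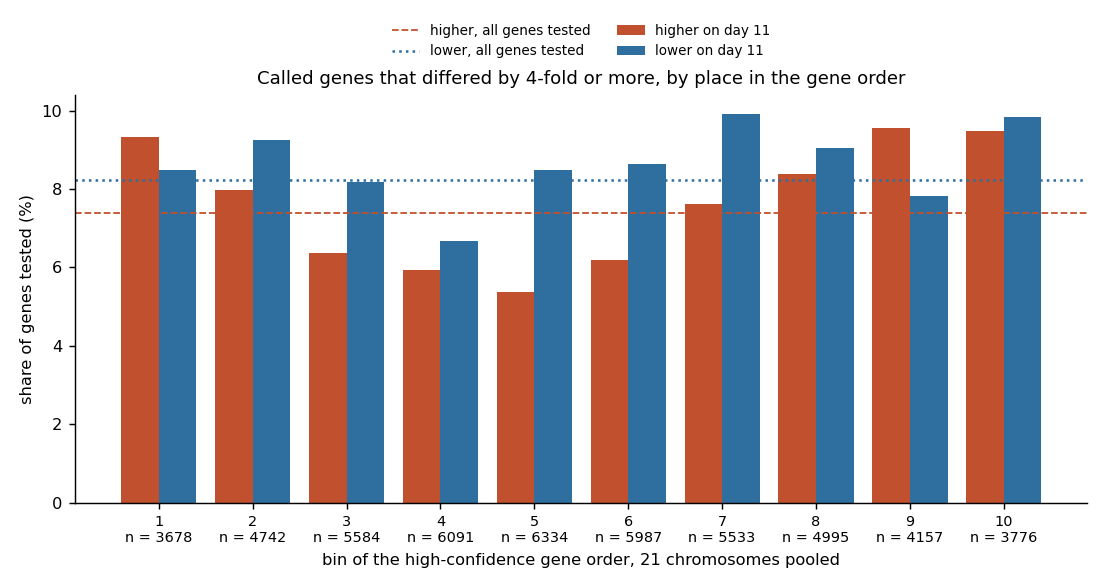
Share of tested high-confidence genes (%) called higher (red) or lower (blue) by 4-fold or more in day 11 leaves than in day 0 leaves, by bin of the gene order along the chromosome, with 21 chromosomes pooled and the shares over all genes tested as lines. Large rises make up 9.33% and 9.48% of the outer bins and 5.38% of bin 5.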

How the data were processed

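HISAT2 2.2.1, featureCounts 2.0.3, Trim Galore 0.6.7, StringTie 2.2.3, FastQC 0.74 and MultiQC 1.11 are named, without roles, per the submitters' processing notes. The authors deposited raw counts per gene for 15 libraries, with 107836 high-confidence and 161371 low-confidence identifiers. The sources used here do not give the genome build, the strand setting or the handling of multi-mapping reads. Per the labels' protocols a stranded mRNA kit was sequenced as 150 nt paired ends.

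The test was that of edgeR 4.0.16, run in R 4.3.3 on the counts (TMM, filterByExpr, glmQLFit, glmQLFTest). The 12 leaf libraries were fitted together with 1 term per group, and genes were called at an adjusted p under 0.05. Per-plant differences used log2(CPM + 0.5). Root levels used TMM over all 15 libraries. DESeq2 1.42.0 was an alternative. The labels state that 3 plants were used and carry their numbers, which pairs the libraries by origin. Deviations from the group means of same-plant libraries correlated across genes at -0.0573 to 0.0341. P-values rest on the spread between these plants within groups, pooled over the 4 leaf groups, and leave the pairing out. Over all genes the pooled biological coefficient of variation was 0.343, beside 0.186 for day 11 and 0.496 for day 0. The named genes are the 2 largest gains and 2 largest losses in mean CPM. The members and lists were chosen with earlier results of these data known. Floors cover counting error only.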

Additional observations from a re-analysis of the deposited data

How the results depend on the processing

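The 4 named genes kept their direction and an adjusted p under 0.05 in all 23 alternatives (edgeR or DESeq2 adjusted p of at most 0.0025, 0.003, 0.017 and 0.042 for TraesCS6D02G378000, TraesCS6B02G432300, TraesCS4B02G140300 and TraesCS4D02G135000). The named genes were chosen, as called genes with large differences, from libraries that the alternatives refit. Their outcome was thus largely built into the choice. Rising and falling genes numbered 13560 and 14295. Counts outside 1.5 times these came from library totals (23447 and 9042), a test for changes above 2-fold (4204 and 6207), leaving out plant 2 (7254 and 9240) and the replicate block over the 6 libraries alone (8911 rising, with 10464 falling within 1.5 times). The replicate block over 12 libraries gave 13076 and 13427. Leaving out 1 plant or 1 library gave 7254 to 14421 rising and 9240 to 14909 falling genes. Without the day 0 library of plant 1 they were 13831 and 13554. DESeq2 called 15354 and 14728. Of the called genes, 1 was called in the opposite direction without plant 3 and 1 without the day 0 library of plant 3, and 0 in each of the other alternatives. The 5 measures per library kept their direction in thinned counts, without any 1 library and, apart from the low-confidence share, which needs both classes, in high-confidence models alone. With 3 libraries against 3 these measures cannot pass a threshold of 0.05. Genes that rose from 0 or fell to 0 numbered 817 and 328 with a filter of 1 CPM, and 1253 and 363 when only the 6 libraries were fitted, beside 1381 and 618.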

Other observations

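Neighbouring genes tended to move the same way. Among 28578 pairs of high-confidence genes that follow each other in the numbering and were both tested, the second gene rose in 28.3% of pairs whose first gene rose and in 19.2% of pairs whose first gene fell, beside 22.6% over all pairs. It fell in 30.2% of pairs whose first gene fell and in 20.9% of pairs whose first gene rose, beside 24.7% over all pairs. Whether a like level, the place on the chromosome or reads shared between similar neighbours have a part in these shares was not tested.

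Longer stretches were seen as well, though how many would arise from the shares of rises and falls alone was not tested. There were 40 runs of at least 5 consecutive tested genes that all rose and 63 that all fell, with untested genes passed over. The longest, of 9 falling genes each, lay on chromosomes 6A and 1A. In the 6A run the median over the genes was 3.07, 3.41 and 4.67 CPM in plants 1, 2 and 3 on day 11, against 94.9, 86.2 and 53.8 CPM on day 0, and the log2 fold changes ran from -7.87 to -0.81. Of these genes, 8 were leaf-preferred and all 9 were also lower on day 7 than on day 1. The 1A run was milder, with log2 fold changes from -2.16 to -1.02, and 1 of its genes was leaf-preferred. Its medians were 2.457, 3.26 and 2.736 CPM in plants 1, 2 and 3 on day 11, against 4.665, 10.77 and 14.64 CPM on day 0. A run of 7 falling genes on chromosome 2B had medians of 120, 119 and 111 CPM on day 11, against 264, 317 and 325 CPM on day 0, and 6 of them were leaf-preferred. The longest run of rising genes had 8 members on chromosome 3A, with medians of 8.31, 6.94 and 7.85 CPM on day 11, against 3.29, 3.54 and 2.86 CPM on day 0.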
